A study of Homo sapiens with 8 samples.

Results

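The 9 genes described here encode receptors and signal carriers of the TGF-β superfamily: the type I receptor TGFBR1, the type II receptors TGFBR2, ACVR2A and BMPR2, the SMAD proteins SMAD2, SMAD3, SMAD4 and SMAD7, and the corepressor SKIL. They were taken by symbol from the 18638 gene models counted in both cell lines, and all 9 were found and passed the count filter in every comparison. The set was chosen by values of the same libraries, namely the changes within DLD-1 and within HCT116, so those changes are given below as descriptions without p-values or calls.

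Factory-seq was used to measure nascent RNA. In this method RNA attached to sites of transcription is freed from nuclei with a caspase mix and sequenced, so that counts cover introns as well as exons. Both lines derive from human colorectal tumours. The DLD-1 cells carried a degron (mAID) and mClover on POLR2A, the gene of the catalytic RNA polymerase II subunit RPB1, and were compared as control and after 500 µM auxin for 14 h, following 24 h of doxycycline to induce TIR1. The HCT116 cells all carried mAID on TOP2A, and the control group was compared with a group that was also TOP2B-/-. For the TOP2B-/- group the titles read control while the treatment field reads auxin (500 µM for 14 h, with 24 h of doxycycline). The names of its count columns also read aux, and those of its controls read ctrl. Genotype, auxin and doxycycline therefore cannot be told apart there, and TOP2A protein, which carries the degron, was not measured here. Each of the 4 groups held 2 libraries, and nothing in the labels says whether replicates were separate cultures or whether a line was 1 clone, so p-values measure the spread between these libraries only. All titles call the cells asynchronous. The treatment text also mentions sorting for G1 where applicable, and does not say whether it was done here or whether control cells received doxycycline.

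Total counts were 36906755 and 62626875 in the DLD-1 controls, 10739622 and 14183633 after auxin and 32129400 to 36491540 in HCT116. The degron acts on protein, so POLR2A reads do not check the treatment. TOP2B was read at 2.02 and 2.02 RPKM (reads per kb of counted span per 1000000 reads of the library) in the TOP2B-/- libraries and at 2.83 and 2.80 in their controls, and the deleted stretch is not given, so this does not check the genotype. The epithelial markers EPCAM, KRT8, KRT18 and KRT19 were read at 6.03 RPKM or more in all 8 libraries. CDH1, the epithelial cadherin, was at 15.0 to 25.3 in DLD-1 and 0.633 to 1.02 in HCT116. The colon markers CDH17, KRT20 and VIL1 stayed at or under 0.0425 in HCT116. CDX2, the colon transcription factor, was at 0.576 to 0.739 in HCT116 and went from 8.34 and 8.11 to 1.27 and 0.957 after auxin in DLD-1. Of 9 markers of mesenchymal, endothelial and immune cells, the median was 0.0163 to 0.0665 in the DLD-1 controls, 0.264 to 0.423 after auxin and 0.00645 to 0.0263 in HCT116. Their summed level was 0.682 and 0.991 in DLD-1 control cells and 6.40 and 6.41 with auxin, and the part of this rise in the auxin values below was not tested. With auxin CD68 was at 3.12 and 2.48 and PECAM1 at 1.66 and 1.30. The auxin medians lay below the read density of silent genes described below, which was 0.346 and 0.522 in those libraries. In HCT116 the sum was 3.45 to 4.24, of which CD68 made up 3.08 to 4.12.

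In this pathway a ligand dimer binds type II receptors, which phosphorylate type I receptors. TGFBR2 and TGFBR1 serve TGF-β, ACVR2A serves activins and some BMPs, and BMPR2 serves BMPs. TGF-β and activin receptors then phosphorylate SMAD2 and SMAD3, BMP receptors phosphorylate SMAD1, SMAD5 and SMAD9, and either group joins SMAD4 and enters the nucleus. SMAD7 blocks the receptors and is itself induced by the pathway, and SKIL (SnoN) represses SMAD target genes. The pathway restrains growth of the colon epithelium, and TGFBR2, ACVR2A, SMAD2 and SMAD4 are recurrently mutated in colorectal cancer.

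The deposited models place the genes, on GRCh38, at 9:99105089-99154191 (TGFBR1), 3:30606502-30694141 (TGFBR2), 2:147844517-147930827 (ACVR2A), 2:202376327-202567751 (BMPR2), 15:67065857-67195195 (SMAD3) and 3:170357685-170396849 (SKIL). SMAD2 (18:47833095-47931146), SMAD7 (18:48919853-48950711) and SMAD4 (18:51030213-51085041) lie on the same chromosome. Their spans ran from 30.859 kb in SMAD7 to 191.425 kb in BMPR2, against a median of 23.6 kb over all models, and every base of the span was counted. ACVR2A shares 431 bp at its end with ORC4 on the opposite strand, and no other of the 9 overlaps a counted model.

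Promoter windows of 3 of the genes are shown because they mark the ends of the results. TGFBR2 had the lowest and BMPR2 the highest fold change after auxin among the 9, and SMAD7 differed most between the lines. Each window holds the 250 bases before the outermost RefSeq start (GRCh38.p14), outside the deposited model, at chr3:30606106-30606355 on the plus strand, chr2:202376077-202376326 on the plus strand and chr18:48950966-48951215 on the minus strand. Capitals mark CAGAC, the core of the SMAD-binding element, searched as CAGAC or GTCTG so that both strands were covered.
TGFBR2: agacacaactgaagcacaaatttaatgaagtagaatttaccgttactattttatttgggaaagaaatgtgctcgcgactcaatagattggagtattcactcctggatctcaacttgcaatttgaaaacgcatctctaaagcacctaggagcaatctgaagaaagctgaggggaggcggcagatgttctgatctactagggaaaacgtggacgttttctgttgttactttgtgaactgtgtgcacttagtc
BMPR2: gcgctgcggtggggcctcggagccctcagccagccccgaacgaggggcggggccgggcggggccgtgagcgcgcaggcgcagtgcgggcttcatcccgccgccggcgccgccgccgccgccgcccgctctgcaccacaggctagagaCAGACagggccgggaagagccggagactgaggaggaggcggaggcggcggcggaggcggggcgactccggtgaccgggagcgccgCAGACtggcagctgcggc
SMAD7: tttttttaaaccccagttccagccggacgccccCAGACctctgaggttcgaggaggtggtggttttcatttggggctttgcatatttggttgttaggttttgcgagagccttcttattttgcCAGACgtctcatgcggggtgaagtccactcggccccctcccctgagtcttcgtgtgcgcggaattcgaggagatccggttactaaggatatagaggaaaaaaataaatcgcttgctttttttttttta
The motif stood 2 times in the BMPR2 window, 2 times in the SMAD7 window and 0 times in the TGFBR2 window. It is common, with 38.0% of 35116 windows of that length holding it, and the longer palindrome GTCTAGAC stood in 0.182% of windows and in none of the outermost windows of the 9 genes. The BMPR2 window held 36 CpG at 79.2% GC, the SMAD7 window 13 CpG at 48% GC and the TGFBR2 window 7 CpG at 40.8% GC, against medians of 11 CpG and 58% GC over all windows. These are descriptions of letters, and no binding was measured.

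Levels below are RPKM, in replicate order. In the DLD-1 controls TGFBR2 stood highest at 3.35 ± 0.0474 (mean ± SD, n = 2), followed by SMAD2 at 3.0, SMAD4 at 2.84, SMAD7 at 2.65, SMAD3 at 2.35, ACVR2A at 1.97, SKIL at 1.58, TGFBR1 at 1.11 and BMPR2 at 1.03. The replicates of neighbours in this order did not overlap at any step, although SMAD3 (2.61 and 2.09) nearly reached ACVR2A (1.93 and 2.01). In the HCT116 controls SMAD3, the TGF-β and activin effector, led at 4.72 ± 0.348, and the inhibitor SMAD7 was last at 0.181 ± 0.0139. SMAD2, SMAD4 and TGFBR2 stood between 3.11 and 2.15 there, and BMPR2 and ACVR2A at 0.532 and 0.367. The order of the 9 genes was the same in the TOP2B-/- libraries as in their controls.

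**Figure D1:**
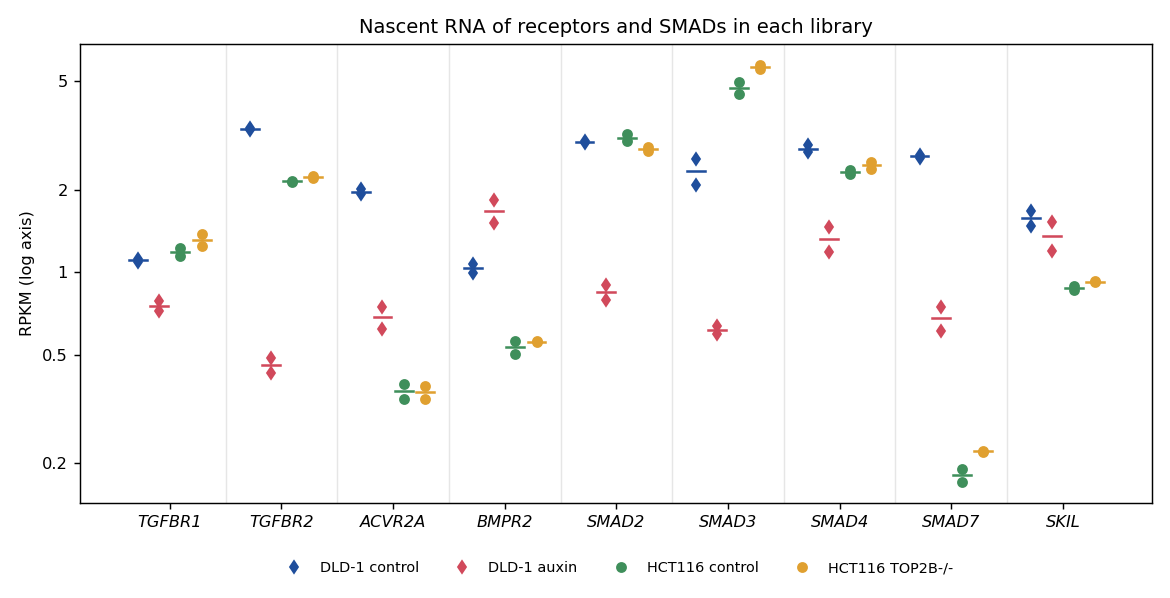
Level of each gene in RPKM (log axis) in all 8 libraries, with 1 point per library, a bar at the group mean and colour by group. The DLD-1 auxin points lie above their controls for BMPR2, across them for SKIL and below them for the other genes, while the HCT116 groups lie close together. SMAD7 and ACVR2A stand far lower in HCT116 than in DLD-1 controls.

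Auxin-treated cells were set against control cells in DLD-1 to ask what happens to nascent RNA when RNA polymerase II is targeted for depletion. RPB1 protein was not measured here. On the level scale TGFBR1, TGFBR2, ACVR2A, SMAD2, SMAD3, SMAD4 and SMAD7 were lower in both auxin libraries than in both controls. The genes were picked by this contrast and the share over all gene models was not computed, so nothing is read from their number. TGFBR2, the receptor that binds TGF-β itself, was read at 3.38 and 3.32 in control cells and at 0.430 and 0.488 with auxin. The groups lie far apart, with a log2 fold change of -3.51 ± 0.17 (SE, edgeR with TMM scaling). TGFBR1, its type I partner, went from 1.09 and 1.12 to 0.721 and 0.783, a log2 fold change of -1.20 ± 0.16.

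In control cells the activin receptor ACVR2A was read at 1.93 and 2.01, against 0.621 and 0.749 with auxin, a log2 fold change of -2.16 ± 0.17. BMPR2, the BMP receptor and the longest of the genes, stood apart from the other receptors. Its level was 0.991 and 1.07 in control cells and 1.83 and 1.51 with auxin. On this scale both auxin libraries were above both controls, yet the TMM-scaled log2 fold change was 0.06 ± 0.19.

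Among the SMADs, SMAD2 went from 2.97 and 3.03 to 0.899 and 0.795, a log2 fold change of -2.46 ± 0.18. SMAD3 went from 2.61 and 2.09 to 0.634 and 0.597, a log2 fold change of -2.57 ± 0.22. These receptor-regulated SMADs thus had similar values with TMM scaling. They lay farther apart, at -2.21 and -3.09, after subtraction of the background described below. The common partner SMAD4 kept more of its level, with 2.75 and 2.92 in control cells and 1.46 and 1.19 with auxin (log2 fold change -1.73 ± 0.19). The inhibitor SMAD7 went from 2.68 and 2.63 to 0.749 and 0.613, a log2 fold change of -2.60 ± 0.21. In each of the 4 the groups did not overlap.

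SKIL was read at 1.48 and 1.67 in control cells and at 1.53 and 1.20 with auxin. The groups overlapped on this scale, and the TMM-scaled log2 fold change was -0.84 ± 0.21. After auxin the order of the genes was headed by BMPR2 (1.67 ± 0.227), SKIL (1.36) and SMAD4 (1.32), whose replicates overlapped from one to the next, and TGFBR2 was last.

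On the TMM scale 8 of the 9 log2 fold changes were below zero, and BMPR2 was the exception. The contrast is one by which the genes were picked, and the share of all tested genes below zero is not given. Nothing is therefore read from that count or from the medians that follow. The median log2 fold change of the 9 genes was -2.16, and that of all tested genes was -0.06.

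**Figure D2:**
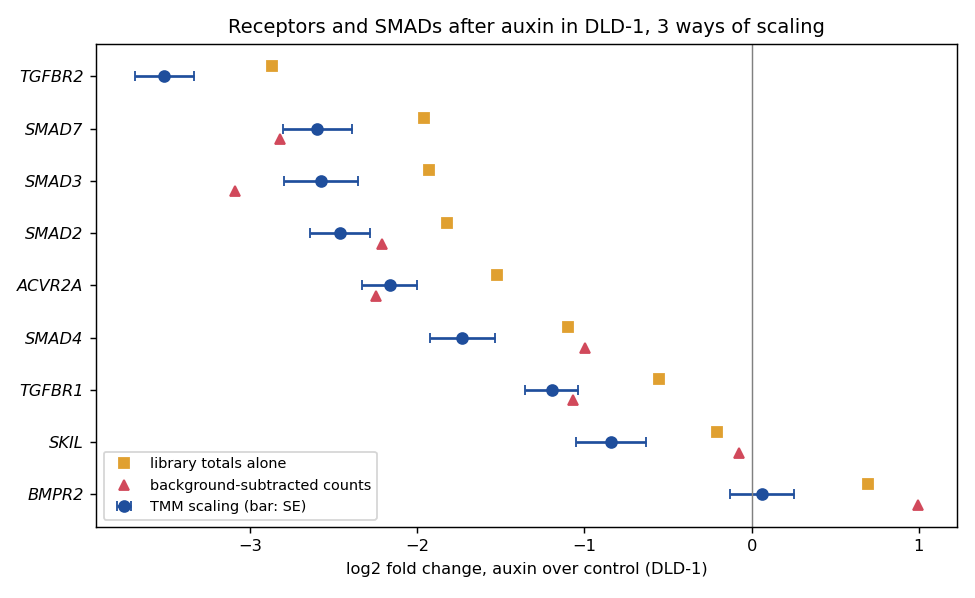
Log2 fold change after auxin in DLD-1 for the 9 genes, from TMM-scaled counts with their standard errors, from library totals alone and from background-subtracted counts. TGFBR2, whose subtracted value is not drawn, is lowest in the first 2 and BMPR2 highest in all 3, and BMPR2 moves from 0.06 to 1.00 between TMM scaling and subtraction.

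The size of these values depended on the scaling. None of the scalings used here had an outside reference for the amount of RNA per cell. All values are therefore relative to the other genes, and a rise or fall in absolute amount cannot be read from them. With library totals alone the median of all tested genes was 0.57, a shift of about the same size appeared in each of the 9 genes, and 69.1% of called genes were higher instead of 47.9%. On that scale TGFBR2 was at -2.87 and SMAD4 at -1.10, SKIL at -0.21 and BMPR2 at 0.70. With a mean CPM of at least 5 as the filter, SKIL was at -0.46 and BMPR2 at 0.45.

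A second measure was the read density over silent genes. These were the gene models with the fewest reads per base in the controls of the other cell line. Spread over all models, this density would account for 2.25% and 9.05% of reads in DLD-1 control cells and for 39.5% and 59.7% with auxin. TGFBR2 lay 172 and 41.9 times above it in control cells and at 1.24 and 0.933 times with auxin, so its auxin reads were at the silent-gene density. SMAD3 (1.83 and 1.14 times), SMAD7 (2.17 and 1.17), ACVR2A (1.80 and 1.43), TGFBR1 (2.08 and 1.5) and SMAD2 (2.60 and 1.52) lay above it. In auxin replicate 2 these genes were under 2 times the density. SMAD4 (4.22 and 2.28), SKIL (4.42 and 2.29) and BMPR2 (5.30 and 2.89) stayed above 2 times the density in both libraries.

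**Figure D3:**
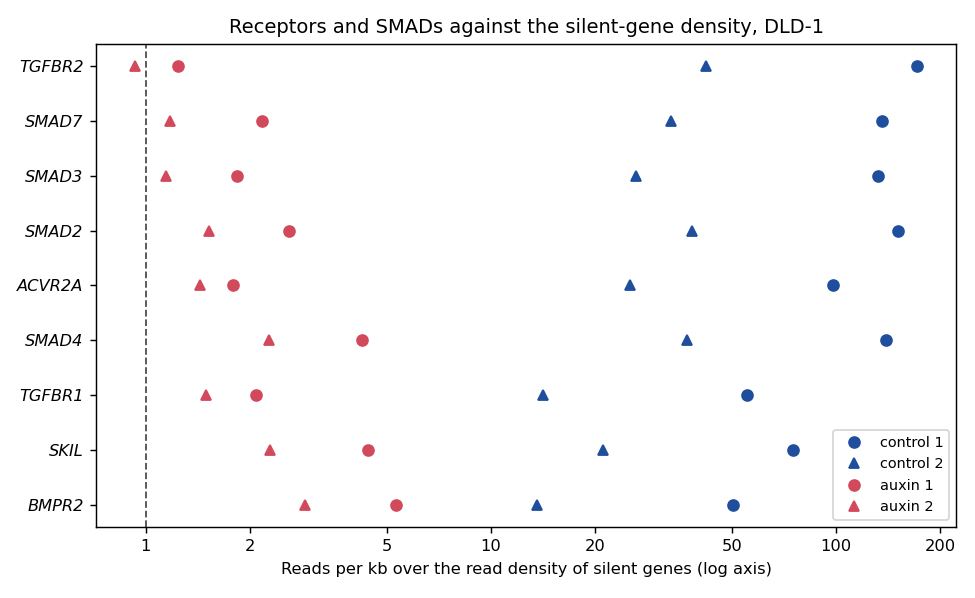
Reads per kb of each gene divided by the read density of silent genes in the same DLD-1 library (log axis, dashed line at 1), with blue for controls, red for auxin and the marker shape for the replicate. All auxin points lie between 0.933 and 5.30, and all control points between 13.6 and 172.

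Subtracting that density left TGFBR2 with 104 and 0 reads after auxin, against 18464 and 10472 in the controls, so no size of change after subtraction is given for it. SMAD7 was left with 177 and 30 reads and SMAD3 with 529 and 103. Their subtracted log2 fold changes, -2.82 and -3.09, rest on these reads. After subtraction the log2 fold changes were -2.21 in SMAD2, -2.25 in ACVR2A, -1.07 in TGFBR1, -0.99 in SMAD4 and -0.08 in SKIL, and BMPR2 stood at 1.00.

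Of 104 other genes listed for the pathway, 103 were in the tables and 102 were tested in DLD-1, with 33 called higher and 37 lower after auxin (edgeR, adjusted p under 0.05). Over all 17625 genes tested, 32.2% were called higher and 35% lower, so the shares in the list were near those of all genes. Of the 33 called higher, 21 lay under 2 times the silent-gene density in both auxin libraries. The 70 calls dropped to 19 without auxin replicate 1 and 21 without auxin replicate 2, and the rises of LEFTY1, LEFTY2, GDF5, GDF9, INHA, ACVRL1 and NOG and the falls of ID3, BAMBI and TWSG1 given below were among those lost in both. Of the 18 tested corepressors, cofactors and turnover factors 13 were called lower and 1 higher, with a median log2 fold change of -1.22. Among them CITED2, a coactivator of SMAD target genes, fell from 19.9 and 23.1 to 8.33 and 6.72 (log2 fold change -2.14 ± 0.22, adjusted p = 0.0044). HGS, which brings SMADs to the receptors at endosomes, was not called, at -0.90 ± 0.33.

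The 27 ligands split, with 15 higher and 3 lower. BMP4, a BMP ligand, had the largest fall of the whole list, from 40.0 and 38.4 to 4.07 and 3.03 (log2 fold change -4.10 ± 0.25, adjusted p = 0.0042). Those auxin levels were still 11.8 and 5.80 times the silent-gene density. The ligands with the largest called rises were read at very low levels in the controls. LEFTY2, an antagonist of NODAL, had 3 and 13 reads in control cells and 134 and 110 with auxin, and LEFTY1 had 4 and 6 and then 48 and 30. These paralogs are near-identical, so their reads may be shared. GDF9 rose by 3.46 ± 0.51 on the log2 scale (adjusted p = 0.0081) and overlaps UQCRQ by 258 bp. GDF5 rose by 3.32 ± 0.65 and INHA, an inhibin subunit, by 3.14 ± 0.58, with INHA at 1.35 and 0.972 times the silent-gene density after auxin. AMH was not called, at -0.81 ± 0.29.

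Of 14 other receptors and co-receptors, 5 were called higher and 6 lower. BMPR1A, a type I BMP receptor, fell by 1.96 ± 0.19 on the log2 scale to 1.31 and 1.15 times the silent-gene density. BAMBI, a decoy receptor, fell from 2.36 and 2.43 to 1.67 and 1.18 (log2 fold change -1.38 ± 0.32, adjusted p = 0.023). ACVRL1 was called higher (2.94 ± 0.74), with auxin levels at 0.857 and 0.615 times the silent-gene density. Among the BMP-side SMADs, SMAD1 fell from 1.09 and 1.15 to 0.631 and 0.633 and SMAD5 from 2.30 and 2.34 to 1.09 and 1.08. SMAD9 was called higher by 2.09 ± 0.40 (adjusted p = 0.015), from 0.0677 and 0.149 to 0.658 and 0.763, which was 1.90 and 1.46 times the silent-gene density.

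Of 24 transcriptional targets, 11 were called lower and 3 higher, with a median of -0.54. Of the ID genes, inhibitors of basic helix-loop-helix factors and BMP targets, 3 fell: ID1 by 3.66 ± 0.26, ID2 by 2.26 ± 0.19 and ID3 by 3.02 ± 0.48 on the log2 scale, with adjusted p of 0.0042, 0.0042 and 0.0096. ID1 and ID2 stayed 8.97 to 26.2 times above the silent-gene density, and ID3 was at 0.765 and 0.573 times. ID4 was not called, with 2 and 12 reads in control cells and 18 and 26 with auxin. Of the 15 extracellular binding proteins and antagonists tested, 8 were called higher and 2 lower. NOG, which sequesters BMPs, had 1 and 5 reads in control cells and 19 and 15 with auxin. THBS1, an activator of latent TGF-β, was not called at -0.88 ± 0.31. TWSG1 was called lower at -0.59 ± 0.18 (adjusted p = 0.040) but higher, at 0.49, with background-subtracted counts (edgeR, adjusted p = 0.043). The BAMBI fall was not called with library totals (-0.75) or after subtraction (-0.62), and HGS, THBS1 and AMH were called lower by DESeq2 (-0.85, -0.82 and -0.75).

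In HCT116 the TOP2B-/- group was set against its control. The 9 genes stayed near their control levels. SMAD3 was read at 4.97 and 4.47 in the controls and at 5.74 and 5.55 in TOP2B-/-, which did not overlap, with a log2 fold change of 0.24 ± 0.06. SMAD2 was read at 3.20 and 3.01 and then at 2.78 and 2.88, also without overlap, with a log2 fold change of -0.16 ± 0.04. The values of these partners had opposite signs.

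SMAD7 was read at 0.191 and 0.171 in the controls and at 0.221 and 0.223 in TOP2B-/-, with a log2 fold change of 0.27 ± 0.15 on only 193 to 237 reads per library. TGFBR1 went from 1.23 and 1.15 to 1.25 and 1.38, at 0.12 ± 0.06. TGFBR2 was at 2.15 and 2.15 and then at 2.26 and 2.22, and SMAD4 at 2.37 and 2.28 and then at 2.39 and 2.52. ACVR2A (0.390 and 0.344, then 0.344 and 0.384), BMPR2 (0.560 and 0.503, then 0.556 and 0.559) and SKIL (0.862 and 0.889, then 0.922 and 0.926) had log2 fold changes within 0.06 of zero, as did TGFBR2 and SMAD4.

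The median of the 9 genes was 0.05 and that of all tested genes 0.03.

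**Figure D4:**
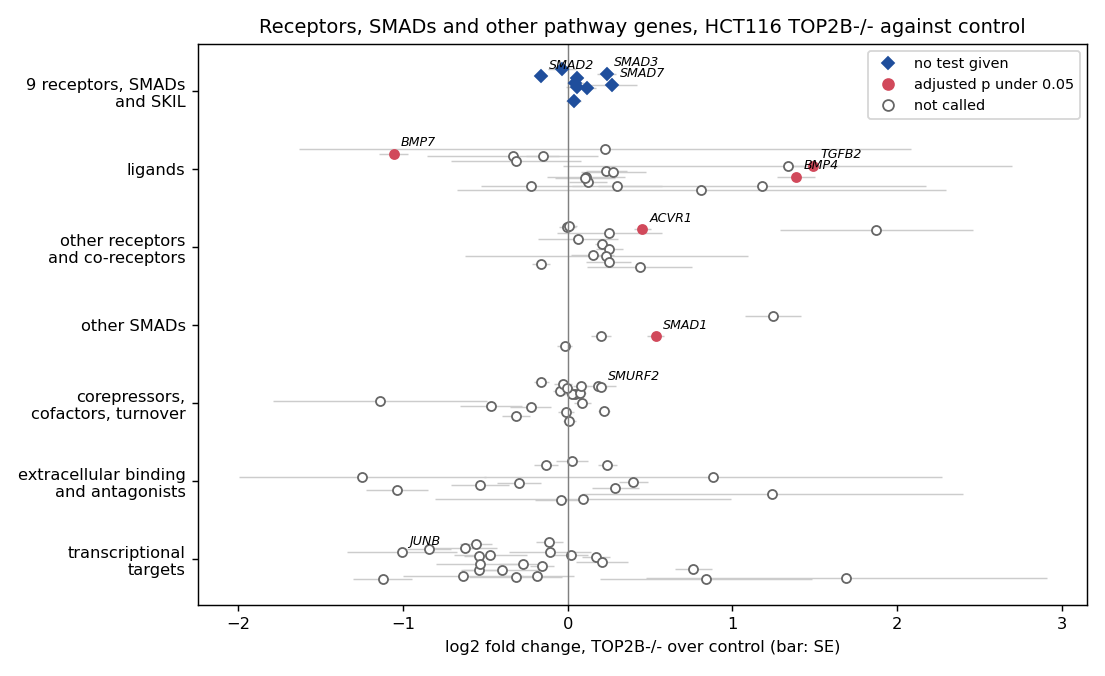
Log2 fold change of TOP2B-/- over control HCT116 libraries for the 9 genes and 88 other pathway genes by role, with standard errors, blue for the 9 genes, for which no test is given, and red where the adjusted p was under 0.05. The 9 genes lie between -0.16 and 0.27, and the 5 red points are TGFB2, BMP4, BMP7, ACVR1 and SMAD1.

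Of the 88 other pathway genes tested, 4 were called higher and 1 lower, beside 1.75% and 1.66% of all 15273 genes. BMP4 rose from 2.12 and 2.42 to 6.17 and 5.93, a log2 fold change of 1.39 ± 0.12 (adjusted p = 0.027). TGFB2, a TGF-β isoform, rose from 0.0949 and 0.0748 to 0.222 and 0.261, at 1.49 ± 0.16 (adjusted p = 0.036). The BMP type I receptor ACVR1 rose by 0.45 ± 0.05 (adjusted p = 0.042) and SMAD1, which it phosphorylates, by 0.53 ± 0.05 (adjusted p = 0.034). BMP7 fell by 1.06 ± 0.09 (adjusted p = 0.027), from 0.333 and 0.328 to 0.153 and 0.170. BMP7 lies on chromosome 20 and the 405 tested genes of that chromosome had a median of -0.56 in this comparison. The part of the chromosome in the BMP7 value was not tested.

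All 18 corepressors, cofactors and turnover factors and all 13 extracellular proteins tested were not called, nor were the 23 tested targets, whose median was -0.32. Some values lay just over the cutoff. The target ID2 was at 0.76 ± 0.11 (adjusted p = 0.057), the target GADD45B at -1.12 ± 0.18 (adjusted p = 0.065) and SMAD9 at 1.24 ± 0.17 (adjusted p = 0.051). The targets SNAI1, on chromosome 20, and BHLHE40 were at -0.84 ± 0.13 and -0.54 ± 0.09 (edgeR, adjusted p = 0.065 and 0.066). Background-subtracted counts called each of these, with 17 of 79 pathway genes and 2371 of all 13561 genes. The ubiquitin ligase SMURF2 was at 0.20 ± 0.04 (adjusted p = 0.094), HGS at -0.46 ± 0.19, LTBP3 at -0.04 ± 0.16 and THBS1 at -0.13 ± 0.07. The targets read highest, ID1 on chromosome 20 and JUNB, were at -0.40 ± 0.23 and -1.01 ± 0.33, with controls of 60.6 and 85.6 and of 16.7 and 25.9 that differed widely. SMAD5 was at -0.02 ± 0.05, SMAD6 at 0.20 ± 0.06, ACVR1B at -0.0024 ± 0.05, ACVR2B at -0.16 ± 0.06 and AMH at -0.22 ± 0.31. All 5 calls were lost when either TOP2B-/- library was left out, where edgeR called 0 genes in the whole comparison (2266 and 1286 at an unadjusted p under 0.05), and those of ACVR1 and SMAD1 also without control replicate 2. DESeq2 called 21 of 102 other pathway genes, beside 1851 of all 18041 genes. All 5 were among them and, of the genes named by rule, also SMURF2 (0.19), HGS (-0.48) and JUNB (-1.02).

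The controls of the 2 lines were compared as a contrast by which the genes had not been picked, and tests are given. Cell line, tagged gene and sequencing run cannot be told apart in it, and it shares control libraries with the comparisons above. Genes picked by their change from the DLD-1 controls may lean towards high values in those controls. The direction of the differences below is therefore not independent of the choice of genes. SMAD7 differed most, with 2.68 and 2.63 in DLD-1 and 0.191 and 0.171 in HCT116. This was 14.6-fold higher in DLD-1 (log2 fold change 3.87 ± 0.13, adjusted p = 0.0021). ACVR2A, at 1.93 and 2.01 against 0.390 and 0.344, was 5.35-fold higher (log2 fold change 2.42 ± 0.11, adjusted p = 0.0023).

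Smaller differences in the same direction were found in BMPR2 (0.95 ± 0.09, adjusted p = 0.0055), SKIL (0.85 ± 0.08, adjusted p = 0.0047) and TGFBR2 (0.64 ± 0.08, adjusted p = 0.0096). SMAD4 was higher in DLD-1 by 0.28 ± 0.07 (adjusted p = 0.036), a call that was lost with no count filter (0.21) and when any library but DLD-1 control 2 was left out. The TGFBR2 call was lost without HCT116 control 2, at 0.54. SMAD3 was the gene lower in DLD-1, at 2.61 and 2.09 against 4.97 and 4.47 (log2 fold change -1.0 ± 0.20, adjusted p = 0.024). TGFBR1 (-0.11 ± 0.09) and SMAD2 (-0.05 ± 0.09) were not called, and the sign of both turned under some scalings.

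Thus 6 of the 9 genes were called higher and 1 lower in DLD-1, where 17.5% and 28.5% of 15820 tested genes were. The median was 0.64 in the 9 genes and 0.00 in all tested genes. As the genes were picked by changes from the same DLD-1 and HCT116 controls, neither comparison with all genes is independent of that choice.

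**Figure D5:**
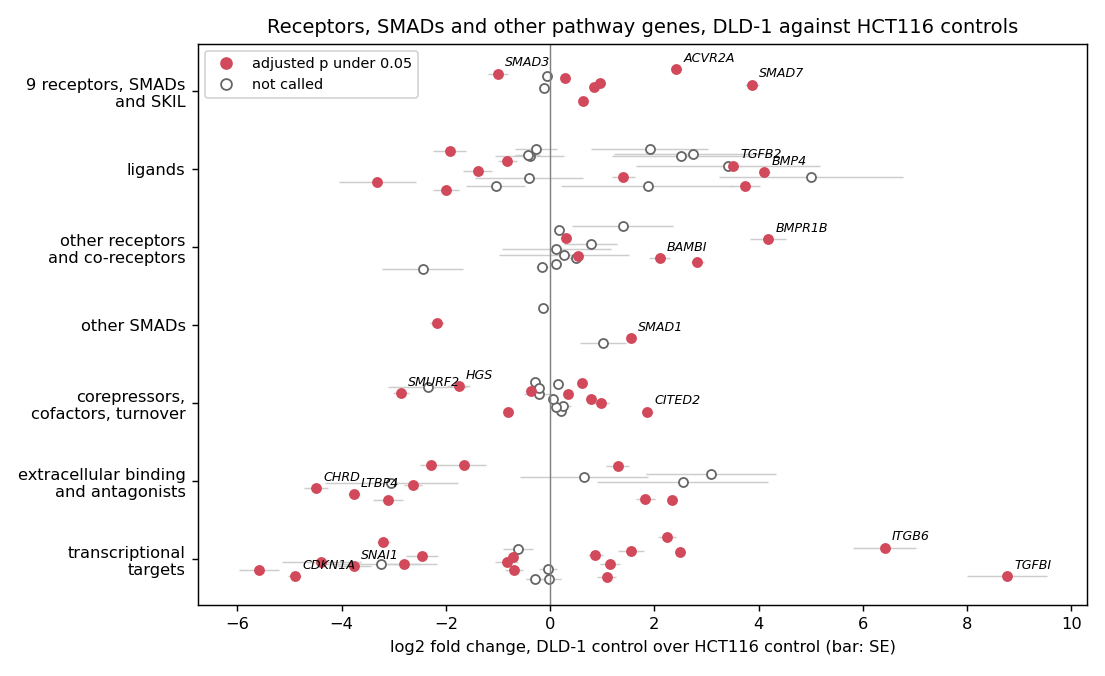
Log2 fold change of DLD-1 control over HCT116 control libraries for the 9 genes and 92 other pathway genes by role, with standard errors, red where the adjusted p was under 0.05. SMAD7 and ACVR2A lie farthest right among the 9, SMAD3 farthest left, and extracellular proteins and targets reach far on both sides.

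Other pathway genes split evenly, with 26 called higher and 26 lower in DLD-1 of 92 tested. Without HCT116 control 2 there were 33 calls in place of 52, with those of THBS1 (1.25), SPHK1 (-4.42) and ID1 (-0.53) among the ones lost. On the receptor side 5 of 14 were higher and none lower. BMPR1B, a BMP type I receptor, was at 0.514 and 0.555 in DLD-1 and at 0.0372 and 0.0211 in HCT116 (log2 fold change 4.19 ± 0.35, adjusted p = 0.0042). BAMBI was higher by 2.11 ± 0.20 (adjusted p = 0.0054). ACVR1B was not called, at 0.17 ± 0.08. Among ligands BMP4 was higher by 4.11 ± 0.11 (adjusted p = 0.0021), and 4 ligands were higher and 5 lower of 20 tested. AMH was not called, at -0.43 ± 0.24.

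Of the other SMADs, SMAD1 was higher in DLD-1 by 1.55 ± 0.08 (adjusted p = 0.0024), SMAD6, an inhibitor of BMP signalling, lower by a log2 fold change of -2.17 ± 0.13, and SMAD5 not called at -0.14 ± 0.06. The 2 inhibitory SMADs therefore lay on opposite sides, SMAD7 higher and SMAD6 lower in DLD-1. Of 18 corepressors, cofactors and turnover factors, 5 were higher and 4 lower. SMURF2, a ligase that works with SMAD7 in degrading the receptors, was at 1.4 and 1.45 in DLD-1 and at 10.7 and 10.0 in HCT116 (log2 fold change -2.86 ± 0.15, adjusted p = 0.0024). HGS was lower (-1.76 ± 0.22, adjusted p = 0.0084) and CITED2 higher (1.87 ± 0.10, adjusted p = 0.0026).

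Of 13 extracellular proteins, 6 were lower and 3 higher in DLD-1. CHRD, a BMP antagonist, was lower at -4.50 ± 0.23 (adjusted p = 0.0024), LTBP4 at -3.77 ± 0.12 (adjusted p = 0.0021) and LTBP3 at -2.28 ± 0.21 (adjusted p = 0.0051), while THBS1 was higher at 1.30 ± 0.22 (adjusted p = 0.017). LTBP3 and LTBP4 hold latent TGF-β in the matrix.

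Of 23 targets, 8 were higher and 10 lower. CDKN1A (p21), which halts the cell cycle, was lower by a log2 fold change of -4.90 ± 0.13 (adjusted p = 0.0021), and SPHK1 and SNAI1 by -4.39 ± 0.76 and -3.77 ± 0.33 (adjusted p = 0.017 and 0.0045). TGFBI and ITGB6, a subunit of an integrin that activates TGF-β, were nearly silent in HCT116. TGFBI had 13 and 2 reads there against 6713 and 3144 in DLD-1, and ITGB6 66 and 25 against 7298 and 4131. ID1 was lower at -0.69 ± 0.18 (adjusted p = 0.045), SNAI1 and ID1 both lying on chromosome 20 with its median of -0.74. The ID1 call was also lost with DESeq2 size factors (-0.59), library totals (-0.69), the CPM filter (-0.53), background-subtracted counts (-0.46) and without either DLD-1 control (-0.75 and -0.67). JUNB was not called at -0.02 ± 0.23.

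Likeness of pattern was measured as Pearson's r of log2 levels over the 8 libraries among 15205 genes tested in both lines, as a description, since the 8 points share lines and treatment. The gene most like TGFBR2 was WDR41 (r = 0.999), that most like SMAD3 was E2F3 (1.00) and that most like SMAD2 was POGZ (0.999). The others were RNF169 for TGFBR1 (0.998), ABHD6 for ACVR2A (0.998), ZFYVE16 for SMAD4 (0.999), MTUS1 for SMAD7 (0.998), CDC14A for BMPR2 (0.995) and FZD7 for SKIL (0.994). Within the 9 genes the closest pair was TGFBR2 and SMAD4 (r = 0.987), and the least alike were BMPR2 and SMAD3 (-0.865).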

How the data were processed

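Factory-seq libraries of nascent RNA were grouped by their labels into 4 groups of 2. The authors deposited raw read counts per gene model, with 1 table per cell line. Per the labels STAR, DESeq2 and hg38 were used, and the tables carry the name of the iRNA-seq counting tool, which counts over whole gene models. The sources used here do not give its settings or whether strand was used. The deposited tables of the authors' own comparisons hold fold changes and p-values and were not used. Levels (RPKM) were computed from these counts, per kb of counted length and per 1000000 counts of the library. Each library held at least 10739622 counts.

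For each comparison only its 4 libraries entered the edgeR fit (version 4.0.16, R 4.3.3, quasi-likelihood test, filterByExpr, TMM, two-sided p-values, Benjamini-Hochberg adjustment at 0.05 over all genes tested, 2 residual degrees of freedom), and was tested on simulated data. Standard errors came from the F statistic. A call is an adjusted p under 0.05. Alternatives were DESeq2 1.42.0, 2 other scalings, 2 other filters on low counts, background-subtracted counts, a replicate block and leaving out each library. A group left with 1 library was given the spread of the group with 2. A crossed replicate block was added after seeing the data. The background density is the median count per base over silent genes. Within a line these are 3095 models of at least 5000 bp. They are the 20% of such models per chromosome with the fewest reads per base in the controls of the other line. Between the lines they are the 2061 models silent by this rule in both lines, chosen on the same control libraries that are compared.

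The 9 genes and the lists of other pathway genes were chosen with earlier results of these data known. All 9 genes were named. Of the other pathway genes, the 10 called with the largest absolute log2 fold change and the 2 per list with the highest control level were named in each comparison, except 1 gene that is not reported here. SMAD1, SMAD6, SMAD9, SMURF2, ID2, ID4, BMP4, TGFB2 and ITGB6 are also named in other comparisons for contrast, and GADD45B, SNAI1 and BHLHE40 in HCT116. All of these were chosen after their values were seen. Likeness used log2 levels with 0.01 added. Promoter sequences are from RefSeq (GRCh38.p14), and all 9 genes had an entry.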

Additional observations from a re-analysis of the deposited data

How the results depend on the processing

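In DLD-1 after auxin, 11855 genes and 70 other pathway genes were called, and leaving out 1 library gave 2393 to 12732 and 19 to 81, with the lowest counts in the 2 fits that leave out an auxin library. In HCT116, 521 genes and 5 other pathway genes were called, and leaving out 1 library gave 0 to 2519 and 0 to 16. DESeq2 gave 1851 and 21. The filter at a mean CPM of 5 gave 1221 genes and 13 pathway genes, background-subtracted counts gave 2371 and 17, and library totals alone gave 9 pathway genes. Between the lines, 7286 genes, 52 other pathway genes and 7 of the 9 genes were called, and leaving out 1 library gave 3869 to 6285, 33 to 50 and 5 to 7.

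The replicate block gave 12963 genes in DLD-1, 0 genes and 0 pathway genes in HCT116, and 4105 genes between the lines, where the calls of SMAD4, ID1 and SPHK1 were lost (adjusted p = 0.083, 0.053 and 0.060). In DLD-1 AMH, HGS and THBS1 were called with it. Replicate differences correlated at 0.56 in DLD-1, -0.82 in HCT116 and -0.69 between the lines, and with 2 pairs per comparison the numbers do not show that samples are paired. Crossed numbers gave 1808 genes and 16 pathway genes in HCT116 and 9389 genes between the lines, where the SMAD4 call was also lost (edgeR, adjusted p = 0.069).

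Some signs turned, and the cause was not tested. Between the lines TGFBR1 went to 0.0029 with DESeq2 size factors, 0.054 with the CPM filter, 0.067 with background-subtracted counts and -0.25 to 0.020 with a library left out. SMAD2 went to 0.057, 0.11 and 0.15 under the same settings, to 0.028 with DESeq2 and to -0.20 to 0.083 with a library left out. SMAD5 went to 0.017 with the CPM filter and 0.056 after subtraction. JUNB went to 0.078 with DESeq2 size factors, 0.14, 0.045 with DESeq2, 0.21, 0.0099 with the replicate block, 0.0083 with the crossed block and -0.31 to 0.23 with a library left out. In HCT116 ACVR1B went to 0.021 with library totals, 0.0036 with the CPM filter and 0.029 after subtraction, SMAD5 to 0.0053 with totals, 0.021 after subtraction and -0.087 to 0.0077 with a library left out, LTBP3 to 0.0016 after subtraction and -0.26 to 0.11 with a library left out, and AMH to -0.60 to 0.055 with a library left out. In DLD-1 after auxin, AMH went to 0.36, HGS to 0.20, THBS1 to 0.41 and TWSG1 to 0.49 after subtraction, and TWSG1 to 0.038 with library totals. With 193 to 237 reads per HCT116 library, SMAD7 was the gene of the 9 with the fewest reads.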
